A study of Homo sapiens with 12 samples.

Results

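UGT2B7, UGT2B15 and UGT2B17 are UDP-glucuronosyltransferases, and AKR1C1, AKR1C2 and AKR1C3 are aldo-keto reductases. These 6 of the 18239 genes with a probe set of their own were chosen because their levels were high on arrays of myeloma cells that had received lenalidomide and dexamethasone, so their levels with those drugs are a description and carry no test. Every probe set that the platform annotation pairs with 1 of these symbols and no other was used. That gave 15 of the array's 49386 probe sets, 6 for the UGT2B genes and 9 for the AKR1C genes.

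RNA of 3 human multiple myeloma cell lines, labelled ARP1, JJN3 and RPMI-8226, was hybridised to 12 Affymetrix arrays, with 1 array for each line and treatment. Multiple myeloma is a cancer of plasma cells. Cells received, for 6 h, all 3 drugs (Combo), LenDex (5 µM lenalidomide with 0.05 µM dexamethasone), CPI203 at 0.01 µM, or no drug (control), and Combo used the same doses. The study asked whether CPI203 improves the activity of lenalidomide. Lenalidomide makes the cereblon ubiquitin ligase degrade lymphoid transcription factors, dexamethasone is a synthetic glucocorticoid that activates the glucocorticoid receptor, and CPI203 blocks the bromodomains of BET proteins, readers of acetylated histones. No array had lenalidomide without dexamethasone or the reverse, so their effects cannot be told apart. Nothing in the labels says that the arrays of a line came from separate cultures, so the spread behind each p is that between these samples.

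UGT2B enzymes sit in the endoplasmic reticulum and join glucuronic acid to steroids, bile acids and drugs, which makes them water soluble and ready for excretion. AKR1C enzymes are cytosolic and use NADPH to reduce ketone groups on steroids and prostaglandins, and by doing so they switch hormones on or off before these reach their receptors. Both families are best known from liver, and from prostate, breast and other tissues that respond to sex steroids. Members of each family have near-identical sequences, so a probe set named for one may also detect another.

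The labels of 2 lines need care. Over all probe sets the JJN3 arrays correlated with the RPMI-8226 arrays at r = 0.966 to 0.982, against 0.891 to 0.909 between the ARP1 arrays and either of them. Array medians of 7 plasma cell markers were 11.78 to 11.92 on the ARP1 arrays, 7.17 to 9.99 on the JJN3 arrays and 7.03 to 9.83 on the RPMI-8226 arrays, on the log2 scale. Syndecan-1 (SDC1), which defines plasma cells, lay between 11.78 and 12.26 on the ARP1 arrays but between 4.96 and 5.79 on the others. Of the other plasma cell markers, 3 were high on all 12 arrays, with IRF4 at 11.83 to 13.31, XBP1 at 10.27 to 12.79 and MZB1 at 10.13 or more. The rest of the list, PRDM1, TNFRSF17 and SLAMF7, lay at or below the list's array medians on the JJN3 and RPMI-8226 arrays. MS4A1 (CD20), a B cell marker that ARP1 arrays had at 4.59 to 5.33, lay between 11.48 and 12.06 on the JJN3 and RPMI-8226 arrays. JJN3 and RPMI-8226 below mean the arrays so labelled, and whether these are independent lines cannot be told from their levels. The JJN3 control array also had the immunoglobulin light chain IGKC at 9.32, against 5.11 to 5.55 on the other JJN3 arrays. Markers of hepatocytes, a main site of these enzymes, had array medians of 4.81 to 5.00 everywhere, with albumin (ALB) at 4.63 to 5.17, and those of prostate epithelium 5.01 to 5.3. SERPINA1 of the hepatocyte list reached 8.65, with LenDex effects of 0.62 in JJN3, 0.94 in RPMI-8226 and -0.15 in ARP1 (limma, adjusted p = 0.146 for the mean of 0.47), and its part in the results was not tested. Markers of epithelium had array medians of 5.91 to 7.17 in JJN3, 4.97 to 5.24 in RPMI-8226 and 5.24 to 5.78 in ARP1. With LenDex 1 of 7 plasma cell markers was called, SLAMF7, which fell by 1.32 (adjusted p = 0.0148), and 0 of 6 B cell markers (limma, 1 at an unadjusted p under 0.05).

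Levels are log2 values, so a difference of 1 is a doubling of signal, and the array medians lay between 5.304 and 5.375. A probe set counted as measured above the low end if it reached 5 on at least 3 arrays, which left 35458 probe sets. Of the 15 member probe sets 11 did so, all 6 of the UGT2B genes and 5 of the AKR1C genes. The other 4, of which 3 are for AKR1C2 and 1 is for AKR1C3, stayed between 4.38 and 5.04 on every array and are not described further. Probe sets of one gene are numbered by their mean level. Of the 11, probe set 1 of UGT2B7 (11729137_at) and of UGT2B17 (11736648_at) have the suffix for a probe set of one transcript. Probe sets 1 and 3 of UGT2B15, 2 of UGT2B17, 1 of AKR1C1 and 2 of AKR1C2 have the suffix x_at, and probe set 2 of UGT2B15 the suffix s_at, which Affymetrix gives where probes also match other genes.

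**Figure D1:**
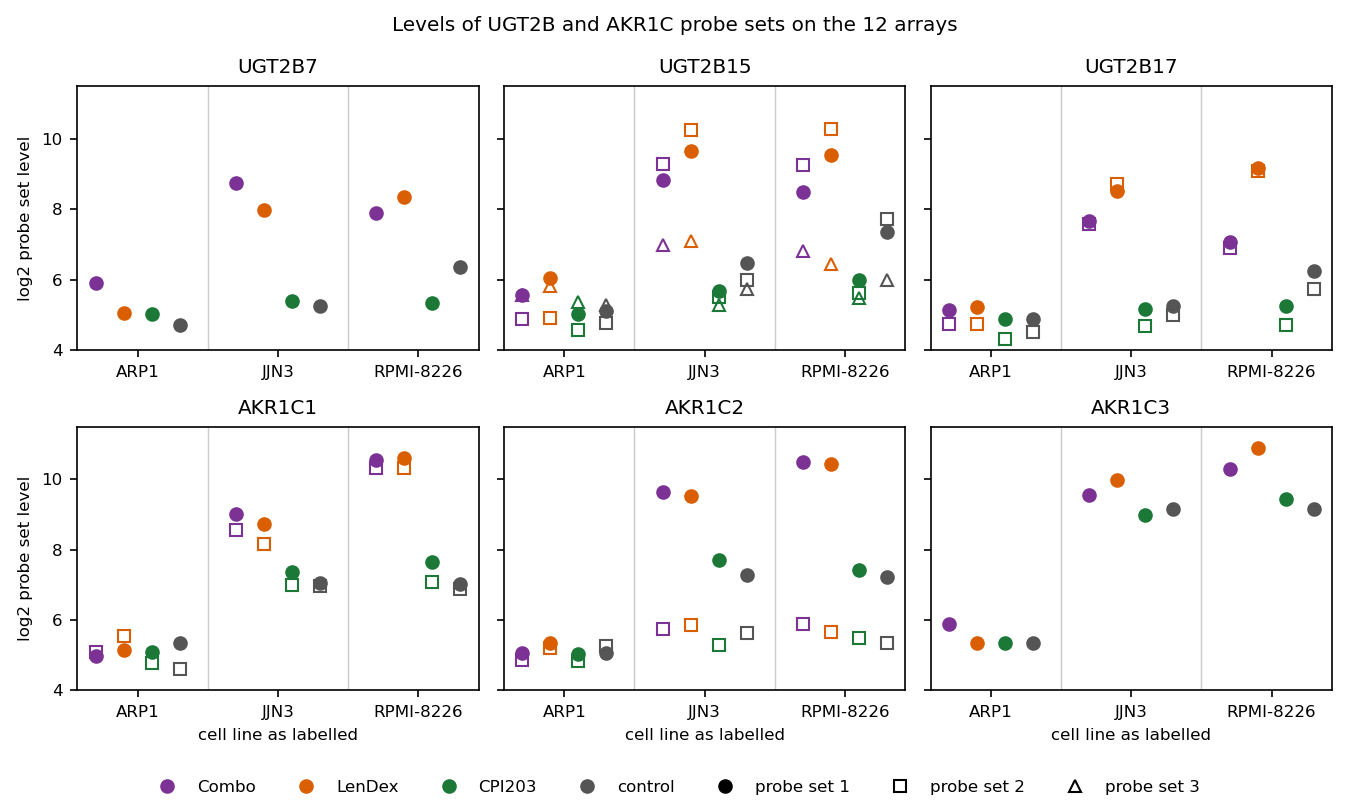
Log2 probe set level (y axis) of each gene on the 12 arrays, grouped by cell line as labelled (x axis). Each symbol is 1 array, its colour the treatment and its shape the probe set. For all 6 genes the Combo and LenDex points of JJN3 and RPMI-8226 stand above the CPI203 and control points of the same line and probe set, and the ARP1 points stay between 4.30 and 6.03.

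For each UGT2B probe set the JJN3 and RPMI-8226 arrays with LenDex lay above those without it of the same line, and the RPMI-8226 control array above the CPI203 array. UGT2B7 conjugates oestrogens, bile acids and opioids. Its levels were 8.74 (Combo), 7.99 (LenDex), 5.38 (CPI203) and 5.24 (control) in JJN3, and 7.89 (Combo), 8.34 (LenDex), 5.35 (CPI203) and 6.35 (control) in RPMI-8226. ARP1 had 5.91 (Combo), 5.05 (LenDex), 5.02 (CPI203) and 4.71 (control). In JJN3 and RPMI-8226 both arrays with LenDex lay above both without it, and in ARP1 the Combo array stood apart from the other 3. The average effect of LenDex is the mean of Combo minus CPI203 and LenDex minus control. For UGT2B7 it was 1.98 ± 1.25 (log2, SD, n = 3 lines), or 8.30-fold in JJN3 and 4.82-fold in RPMI-8226. In bulk RNA, more cells of a type and more RNA per cell cannot be told apart.

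UGT2B15 inactivates dihydrotestosterone and its reduced metabolites. Probe set 2 (11741265_s_at) had 9.30 (Combo), 10.25 (LenDex), 5.50 (CPI203) and 6.00 (control) in JJN3. In RPMI-8226 it had 9.26 (Combo), 10.29 (LenDex), 5.63 (CPI203) and 7.73 (control), and in ARP1 between 4.55 and 4.90 in all 4 groups. This was the widest range of any UGT2B probe set. The RPMI-8226 control array was higher than the JJN3 control array and still below every JJN3 and RPMI-8226 array with LenDex. Its LenDex effect was 4.02 in JJN3, 3.09 in RPMI-8226 and 0.22 in ARP1, a mean of 2.45 ± 1.98 (SD, n = 3 lines). Probe set 1 (11741266_x_at) had 8.82 (Combo), 9.64 (LenDex), 5.67 (CPI203) and 6.47 (control) in JJN3, and 8.49 (Combo), 9.54 (LenDex), 5.98 (CPI203) and 7.35 (control) in RPMI-8226. The order of the 4 groups was the same as for probe set 2. Its LenDex effect was 2.08 ± 1.23 and that of probe set 3 was 0.93 ± 0.59 (SD, n = 3 lines), so the size differed between probe sets of this gene.

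UGT2B17 conjugates testosterone. Probe set 1 had 7.67 (Combo), 8.53 (LenDex), 5.15 (CPI203) and 5.25 (control) in JJN3. In RPMI-8226 it had 7.08 (Combo), 9.17 (LenDex), 5.26 (CPI203) and 6.24 (control), and in ARP1 between 4.87 and 5.22. Of the 2 RPMI-8226 arrays with LenDex, the Combo array was nearer to the control array than to the LenDex array. The LenDex effect was 1.86 ± 1.37 for probe set 1 and 2.14 ± 1.58 for probe set 2 (SD, n = 3 lines). Over the UGT2B probe sets the median LenDex effect was 3.11 in JJN3, 2.36 in RPMI-8226 and 0.35 in ARP1.

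RefSeq (GRCh38.p14) places the UGT2B genes on chromosome 4, and a start site was given for UGT2B7 and UGT2B15. The bases before these starts are shown because the UGT2B probe sets moved together. Over the 250 bases before the start the 2 genes were identical at 58.4% of aligned positions, with 12 bases (capitals) as their longest common run. The windows are bases -200 to -101 before the start, at chr4:69096274-69096373 (plus strand) for UGT2B7 and chr4:68670753-68670852 (minus strand) for UGT2B15.
UGT2B7: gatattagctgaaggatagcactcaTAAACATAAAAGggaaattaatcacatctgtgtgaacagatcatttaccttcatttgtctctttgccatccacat
UGT2B15: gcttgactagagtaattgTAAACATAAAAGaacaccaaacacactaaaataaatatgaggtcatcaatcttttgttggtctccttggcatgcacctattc
The run lies at -175 to -164 in UGT2B7 and -182 to -171 in UGT2B15. It occurs in 6 of 35116 promoter windows of the same build (0.0171%), among them those of UGT2B10 and UGT2B11, which are in the same gene cluster. UGT2B10 is one of the genes between the members and lay between 4.86 and 5.68 on all 12 arrays. UGT2B11 lay between 4.56 and 4.96. A shared run is a description of the letters and no evidence of binding.

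On the JJN3 and RPMI-8226 arrays the AKR1C probe sets past the level limit, apart from AKR1C2 probe set 2, lay above the 68th percentile of the array without LenDex, and higher with it. AKR1C1 reduces progesterone to a less active form. Probe set 1 (11719172_x_at) had 9.02 (Combo), 8.72 (LenDex), 7.36 (CPI203) and 7.05 (control) in JJN3, and 10.56 (Combo), 10.60 (LenDex), 7.64 (CPI203) and 7.02 (control) in RPMI-8226. ARP1 had 4.97 (Combo), 5.16 (LenDex), 5.10 (CPI203) and 5.34 (control). With LenDex the RPMI-8226 arrays stood above the JJN3 arrays, and the ARP1 arrays did not separate by treatment. The LenDex effect was 1.59 ± 1.70 (SD, n = 3 lines), with 3.25 in RPMI-8226, 1.67 in JJN3 and -0.16 in ARP1. Probe set 2 (11719171_a_at), whose suffix marks transcripts of one gene, gave 3.34 in RPMI-8226, 1.38 in JJN3 and 0.62 in ARP1.

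AKR1C2 inactivates dihydrotestosterone. Probe set 1 (11729101_a_at) had 9.65 (Combo), 9.53 (LenDex), 7.71 (CPI203) and 7.29 (control) in JJN3, and 10.48 (Combo), 10.43 (LenDex), 7.43 (CPI203) and 7.23 (control) in RPMI-8226. In ARP1 it stayed between 5.03 and 5.36. The Combo and LenDex arrays of a line lay within 0.12 of each other in JJN3 and 0.05 in RPMI-8226. The LenDex effect was 1.79 ± 1.5 (SD, n = 3 lines), 8.71-fold in RPMI-8226 and 4.25-fold in JJN3. Probe set 2 of AKR1C2 moved far less, with an effect of 0.23 ± 0.20 over levels of 4.83 to 5.88. The other AKR1C2 probe sets did not pass the level limit, so the rise rests on probe set 1. With line means removed, that probe set had r = 0.985 with AKR1C1 probe set 1, and whether it also detects AKR1C1 was not tested. A further probe set, annotated to both AKR1C1 and AKR1C2 and so outside the count of 15, had 10.97 (Combo), 11.07 (LenDex), 8.91 (CPI203) and 8.68 (control) in RPMI-8226.

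AKR1C3 turns androstenedione into testosterone and also makes prostaglandin F. Its probe set 1 (11715711_a_at) had 9.55 (Combo), 9.98 (LenDex), 8.98 (CPI203) and 9.17 (control) in JJN3, and 10.30 (Combo), 10.88 (LenDex), 9.44 (CPI203) and 9.17 (control) in RPMI-8226. ARP1 had 5.89 (Combo), 5.34 (LenDex), 5.36 (CPI203) and 5.34 (control). It was the member with the smallest LenDex effect apart from AKR1C2 probe set 2, at 0.75 ± 0.52 (SD, n = 3 lines). Over the 5 AKR1C probe sets the median LenDex effect was 1.38 in JJN3, 3.12 in RPMI-8226 and 0.16 in ARP1. The UGT2B median was thus higher in JJN3 than in RPMI-8226, and the AKR1C median higher in RPMI-8226, a difference that was not tested. A measure of RNA integrity moved with these values in RPMI-8226 and, for 1 of its 2 transcripts, in JJN3. The 3' minus 5' difference of the actin control probe sets was 0.391 to 0.448 on its arrays with LenDex and 0.226 to 0.275 on those without, while in JJN3 the ranges overlapped. In ARP1 it was 0.286 to 0.305 with LenDex and 0.318 to 0.319 without. For GAPDH it was -0.102 to -0.087 with LenDex and -0.216 to -0.152 without in RPMI-8226, and -0.194 to -0.189 with and -0.22 to -0.205 without in JJN3, and in ARP1 the ranges overlapped. The part of this in the results was not tested.

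**Figure D2:**
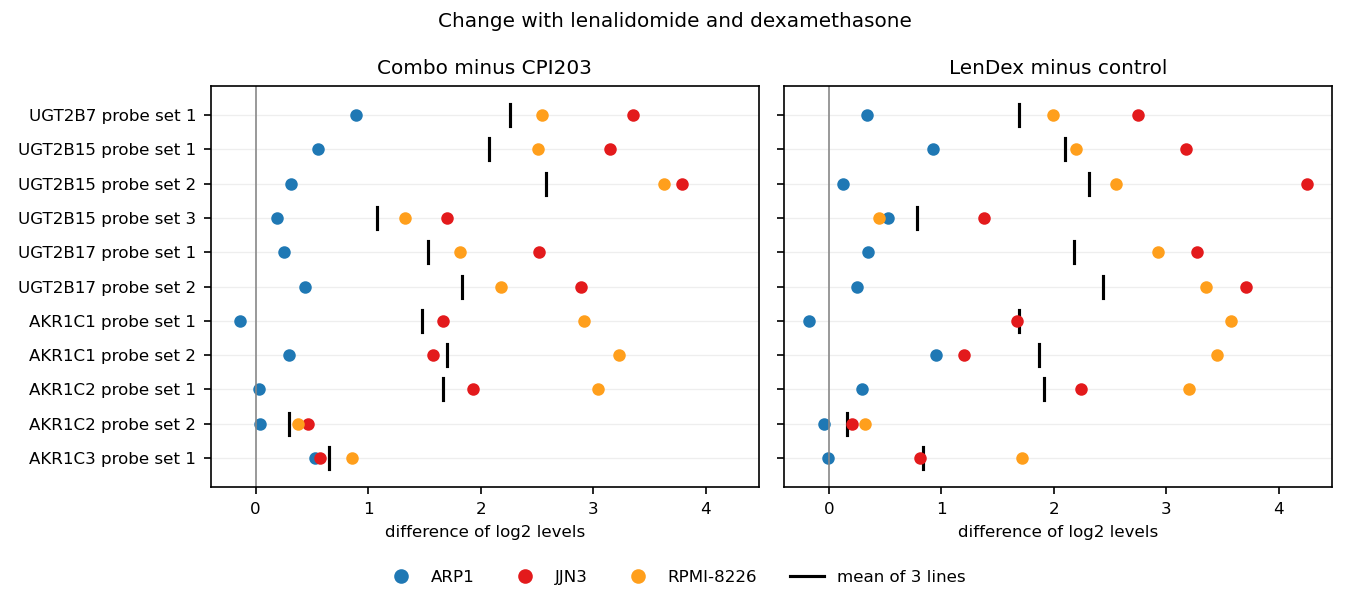
Difference of log2 levels (x axis) for each member probe set (y axis), Combo minus CPI203 on the left and LenDex minus control on the right. Points are the 3 lines and the vertical marks their means. JJN3 points lie furthest right for the UGT2B genes and RPMI-8226 points for most AKR1C probe sets, while ARP1 points lie between -0.18 and 0.95.

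The AKR1C genes lie side by side on chromosome 10, AKR1C1 and AKR1C3 on the plus strand and AKR1C2 on the minus strand (RefSeq, GRCh38.p14). The last 100 bases before each start are shown because all of them hold the same 12 bases (capitals), the longest run common to the family. AKR1C3 has 2 annotated starts. The windows are chr10:4963315-4963414 for AKR1C1, chr10:5003858-5003957 for AKR1C2, and chr10:5048681-5048780 and chr10:5094314-5094413 for the starts of AKR1C3.
AKR1C1: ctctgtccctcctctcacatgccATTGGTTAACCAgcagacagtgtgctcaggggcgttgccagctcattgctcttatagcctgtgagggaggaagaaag
AKR1C2: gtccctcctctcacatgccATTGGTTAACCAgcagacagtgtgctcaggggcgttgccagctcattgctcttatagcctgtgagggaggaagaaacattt
AKR1C3, first start: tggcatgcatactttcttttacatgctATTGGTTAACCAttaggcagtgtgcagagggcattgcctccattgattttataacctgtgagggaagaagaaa
AKR1C3, second start: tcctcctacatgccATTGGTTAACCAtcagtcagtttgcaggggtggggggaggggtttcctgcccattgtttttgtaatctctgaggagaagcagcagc
The run lies at -77 to -66 in AKR1C1, at -81 to -70 in AKR1C2, and at -73 to -62 and -86 to -75 in AKR1C3. Of 35116 promoter windows 5 hold it, and the only one outside these genes is that of PPFIA2. Over 250 bases AKR1C1 and AKR1C2 were 96.5% identical, and AKR1C3 was 69.5% to 71.4% identical to them.

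Exact matches to 8 short motifs were searched in the 6 windows, on both strands except for the TATA box. The antioxidant response element (TGACNNNGC), the AP-1 site (TGANTCA), the xenobiotic response core (GCGTG), the HNF1 core (GTTAAT), the octamer (ATGCAAAT), the TATA box (TATAAA) and the full glucocorticoid receptor site (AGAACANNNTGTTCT) had no match there. The core of the glucocorticoid receptor site (TGTTCT) had 1 match, on the minus strand of UGT2B15 at -172 to -167. It overlaps the end of the shared run printed above. Of all promoter windows 12.4% hold that core, 10.9% the antioxidant response element and 32.2% the xenobiotic response core. The shares were 6.8% for the TATA box, 6.57% for the AP-1 site, 6.23% for the HNF1 core and 1.63% for the octamer. The full glucocorticoid receptor site is in 0.00285% of windows. No match to it in 6 windows was near certain beforehand, and nothing is read from the missing matches.

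Between probe sets, patterns were compared by Pearson's r over the 12 arrays after each line's mean was removed. These values rest on the same arrays that chose the members and have no test. Different UGT2B genes had r = 0.839 to 0.972 with each other. AKR1C probe sets other than AKR1C2 probe set 2 had 0.864 to 0.985, the highest being AKR1C1 probe set 1 with AKR1C2 probe set 1. Across families r was lower, 0.680 to 0.881, and the family mean profiles correlated at 0.864. Near-identical sequence is shared within a family and not between the families, and its part in these values was not tested.

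Among 15167 other genes past the level limit, those most like the UGT2B mean profile were AKNA (r = 0.986), SLC15A4, TCF19, IRAK3, PDE7A and CNDP2 (r = 0.972). AKNA is an AT-hook protein of lymphocytes, IRAK3 restrains Toll-like receptor signalling and PDE7A is a cyclic AMP phosphodiesterase. CD83 (r = -0.966), SEPHS2 and PHLDA1 ran opposite. Those most like the AKR1C profile were COQ8A (r = 0.980), ERP29, FEZ2, NAIP, CREB3L2 and MLEC (r = 0.954), and ZHX1 (r = -0.962), SNX2 and RAMAC ran opposite. COQ8A serves coenzyme Q synthesis, ERP29 and MLEC are proteins of the endoplasmic reticulum, and CREB3L2 is a transcription factor held in its membrane. The size of the LenDex effect differed: 1.11 for AKNA and 1.08 for COQ8A, but 0.19 for ERP29.

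As background, in limma's fit of cell line and treatment, 3.26% of the 35458 probe sets passed an adjusted p of 0.05 for the average effect of LenDex (1.28% higher and 1.98% lower). At an unadjusted p under 0.05 this limma fit had 6410 of the 35458, the background for the unadjusted LenDex counts given here. The median over all probe sets was -0.00176, and 49.6% of them were positive. The 11 member probe sets had a median of 1.79, and all 11 were positive on the mean. AKR1C1 probe set 1 and AKR1C2 probe set 2 were below 0 in ARP1. How many of all probe sets had every LenDex array of a line above the others of that line was not computed. Since the members were chosen on this contrast, nothing is read from these counts.

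Genes around the members were tested. On chromosome 4 none of the 10 neighbours past the level limit was called with LenDex (limma, 0 at an unadjusted p under 0.05, smallest adjusted p = 0.335). Their effects lay between -0.09 and 0.14. Among them TMPRSS11F, TMPRSS11B, TMPRSS11E and CSN2 lay between 4.67 and 5.48 on all arrays, where a change is hard to see. UGT2B10 and UGT2A3, which lie between UGT2B15 and UGT2B7, had effects of -0.05 (SE 0.13, adjusted p = 0.907) and 0.03 (SE 0.17, adjusted p = 0.957). On chromosome 10, 2 of 14 neighbours were called. KLF6, a zinc finger transcription factor, rose by 1.32 (SE 0.27, adjusted p = 0.0297), and TASOR2, a relative of a gene-silencing complex subunit, fell by 0.59 (SE 0.09, adjusted p = 0.0105). AKR1E2 and AKR1C8, next to the members on either side, had -0.04 and -0.11 at levels of 4.78 to 5.33.

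**Figure D3:**
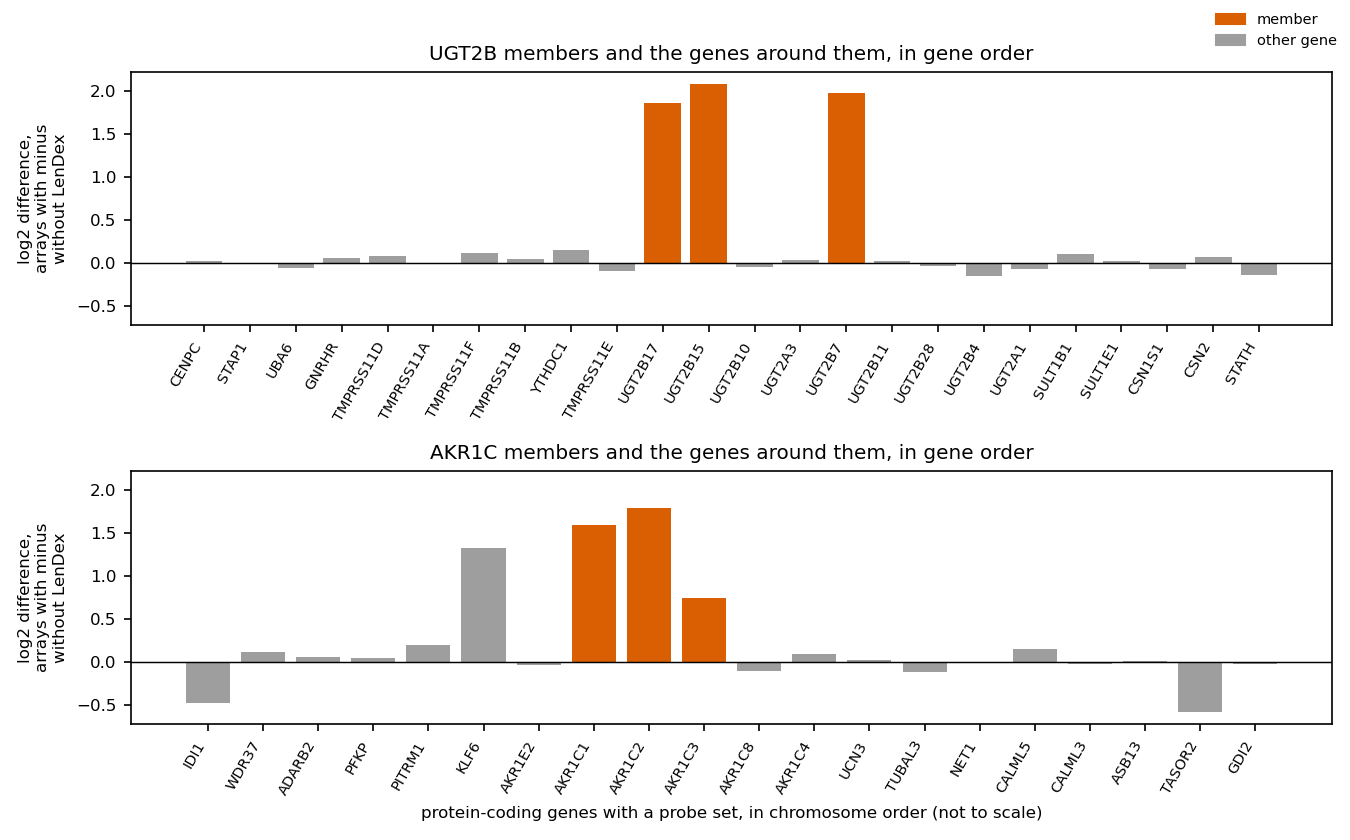
Average LenDex effect (y axis, log2 difference of arrays with minus without LenDex) of members and of the genes around them, in chromosome order (x axis, not to scale), with the UGT2B genes above and the AKR1C genes below. Bars show the probe set with the highest mean of each gene, orange for members. Member bars lie between 0.75 and 2.08, and KLF6 at 1.32 is the other gene above 0.2.

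Other genes of the same superfamilies had 37 single-symbol probe sets. The median over the arrays was 4.64 to 5.42 for all but 2 of them, both for AKR7A2, although UGT8 reached 7.86 on the ARP1 control array and UGT2A3 6.09 on the JJN3 LenDex array. Of the 37, 20 passed the level limit and none was called in limma for the LenDex effect (0 at an unadjusted p under 0.05) or the CPI203 effect (3 unadjusted). AKR7A2, an aldehyde reductase, lay between 9.15 and 10.38 on its probe set with the highest mean and had a LenDex effect of 0.13 (SE 0.07, adjusted p = 0.366). Among 30 other steroid enzymes 1 was called, NSDHL of cholesterol synthesis, which fell by 0.32 (adjusted p = 0.0479). SRD5A1, which makes dihydrotestosterone, had 0.49 (adjusted p = 0.0597). Genes that supply or remove UDP-glucuronate gave 0 called of 5, also 0 at an unadjusted p under 0.05, with UGDH, which makes UDP-glucuronate, at -0.12 (limma, adjusted p = 0.44).

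Targets of the regulators known to induce these families were counted in the same way, against 1.28% of probe sets called higher and 1.98% lower. NRF2, the oxidative stress factor that induces AKR1C genes in other cells, is encoded by NFE2L2, which fell by 0.53 (adjusted p = 0.035). Of 24 listed NRF2 targets 4 fell and 0 rose, namely HMOX1 (-1.45), SRXN1 (-0.79), SLC7A11 (-0.56) and TXNRD1 (-0.51), and the list's median was -0.13. NQO1, a classic NRF2 target, had -0.21 (adjusted p = 0.345). PXR and CAR targets gave 0 of 8 in limma (1 unadjusted). Of these, CYP3A4, CYP3A5, CYP3A7, CYP2B6, SULT2A1 and TSKU reached no more than 5.68 on any array, where a change is hard to see. Nothing about PXR or CAR is read from that count. AHR targets gave 1 of 6, TIPARP, at 1.84 (adjusted p = 0.0424), with 2.96 in JJN3, 2.30 in RPMI-8226 and 0.26 in ARP1. Among 9 prostaglandin enzymes PTGIS was called (0.33), at levels of 4.86 to 5.38.

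Of 22 glucocorticoid-induced genes tested, 5 rose and 0 fell with LenDex, with a list median of 0.45, and those 5 were higher in each of the 3 lines. TSC22D3 (GILZ) had effects of 3.11 in JJN3, 3.08 in RPMI-8226 and 4.55 in ARP1 (mean 3.58, adjusted p = 5.89e-05). FKBP5, a chaperone of steroid receptors and also an androgen target, had 2.02, 1.58 and 2.01 in the same order of lines (mean 1.87, adjusted p = 1.9e-05), and was the 1 gene called of 10 androgen-regulated genes. CXCR4 (2.52), DDIT4 (1.54) and TXNIP (0.89) were the others. Over all lists 14 genes were called, against 3 without the JJN3 arrays and 4 without the RPMI-8226 arrays. Of all 35458 probe sets these fits called 1155, 24 and 34, so the fall was not particular to the listed genes. Without the ARP1 arrays more listed genes were called, and 1473 of all probe sets. The glucocorticoid receptor gene NR3C1 lay between 9.72 and 9.86 on the ARP1 arrays and between 10.38 and 10.92 on the others, with a LenDex effect of -0.25 (adjusted p = 0.13). In ARP1 the median member effect was 0.30, at levels where the array gives little above its low end.

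**Figure D4:**
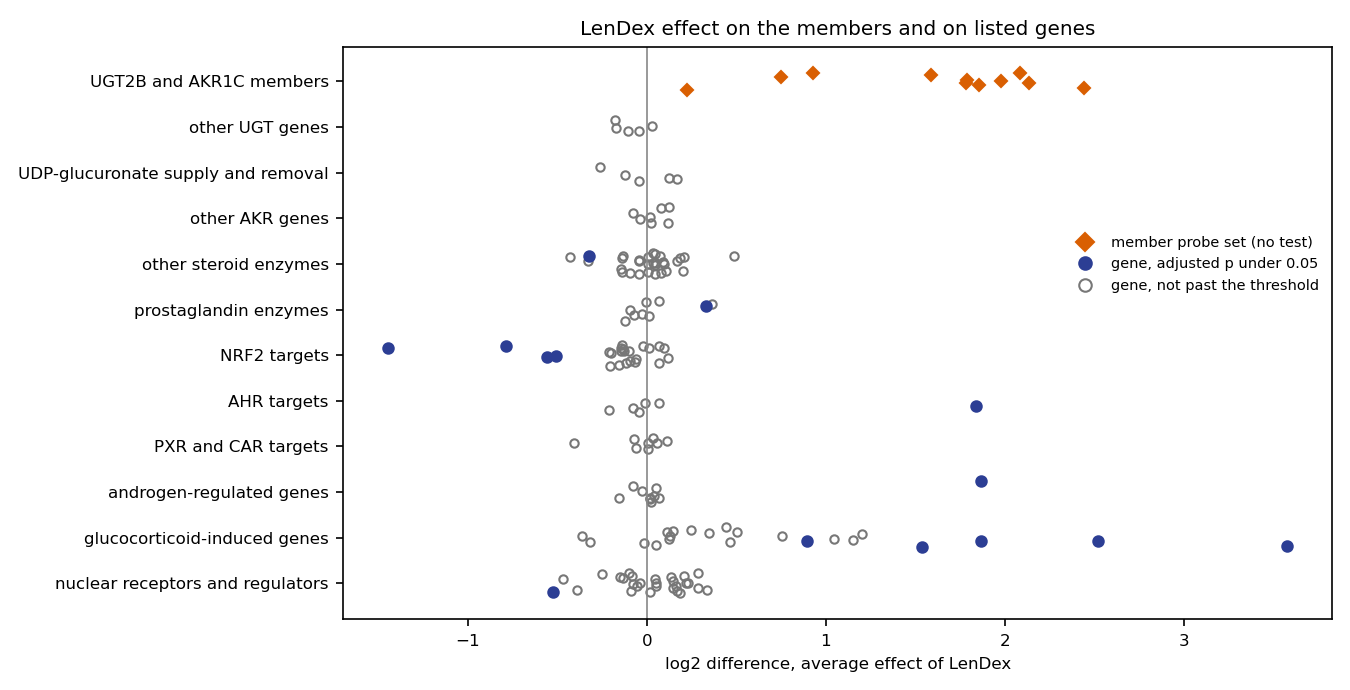
Average LenDex effect (x axis, log2 difference) of the 11 member probe sets and of genes of each list (y axis). Diamonds are members, filled circles genes past an adjusted p of 0.05 in limma, and open circles genes not past it. Called genes lie above 0.8 for glucocorticoid-induced genes and below -0.5 for NRF2 targets.

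The members were not chosen on a CPI203 contrast. They were chosen on contrasts that include Combo minus control, which holds the CPI203 effect in part, and that share arrays with the CPI203 contrasts. The CPI203 tests are thus not wholly free of that choice. The average effect of CPI203 is the mean of Combo minus LenDex and CPI203 minus control. It was negative for 5 of the 6 UGT2B probe sets. Over all probe sets tested 50.6% had a positive effect. All 5 are for UGT2B15 or UGT2B17, and with near-identical sequences they are not separate observations. None of the 11 member probe sets was called (limma, 1 at an unadjusted p under 0.05), against 4.83% of all probe sets, 2.25% higher and 2.59% lower. Of all 35458 probe sets, 7598 had an unadjusted p under 0.05 for this effect in limma. UGT2B15 probe set 1 had -0.77 (SE 0.34, adjusted p = 0.229), with -1.22 in RPMI-8226, -0.81 in JJN3 and -0.29 in ARP1. UGT2B15 probe set 2 had -0.80 (adjusted p = 0.455), and the UGT2B17 probe sets -0.69 (adjusted p = 0.38) and -0.80 (adjusted p = 0.357). UGT2B7 had 0.10 (SE 0.37, adjusted p = 0.924), negative in RPMI-8226 (-0.73) and positive in JJN3 (0.44) and ARP1 (0.58). For the 5 AKR1C probe sets the effect lay between -0.14 and 0.13, with adjusted p of 0.537 to 0.961.

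Without the ARP1 arrays, whose UGT2B levels lay between 4.30 and 6.03, 4 of the 11 member probe sets were called lower with CPI203, against 5.08% of probe sets called lower in that fit. They were UGT2B15 probe set 1 (-1.01, 2.02-fold lower, adjusted p = 0.0161), UGT2B15 probe set 2 (-1.14, adjusted p = 0.0418), UGT2B17 probe set 1 (-1.0, adjusted p = 0.0345) and UGT2B17 probe set 2 (-1.16, adjusted p = 0.0146). These probe sets had r = 0.966 to 0.998 with each other over all arrays, so they are not 4 separate observations. UGT2B17 probe set 1 was at 5.15 in JJN3 and 5.26 in RPMI-8226 on the CPI203 arrays, below the array medians. The CPI203 arrays of UGT2B17 probe set 2 were at 4.72 in RPMI-8226 and 4.69 in JJN3, below the 10th percentile of their arrays, so no fold is given for it, and it passed the level limit through the 4 JJN3 and RPMI-8226 arrays with LenDex and the RPMI-8226 control array. UGT2B7 had -0.14 (adjusted p = 0.806) and no AKR1C probe set was called. This fit rests on the JJN3 and RPMI-8226 arrays alone, which are alike. With JJN3 and RPMI-8226 averaged, 0 of all 35458 probe sets were called for this effect, so that fit says nothing about the members.

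**Figure D5:**
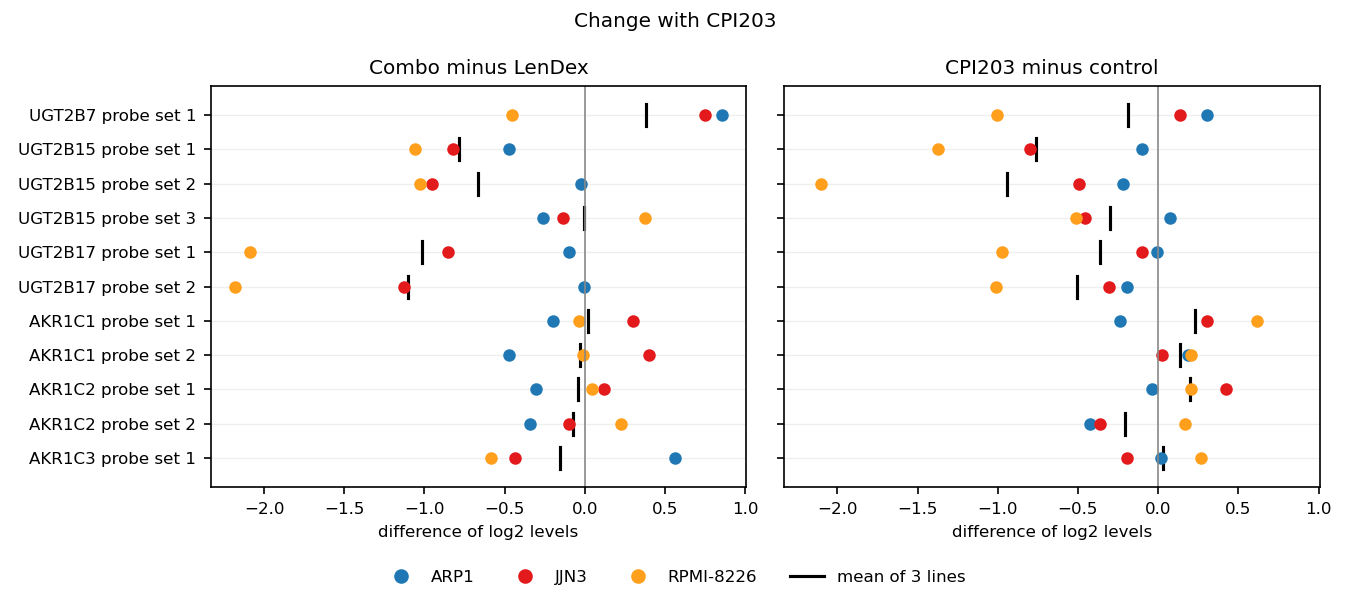
Difference of log2 levels (x axis) for each member probe set (y axis), Combo minus LenDex on the left and CPI203 minus control on the right. Points are the 3 lines and the vertical marks their means. RPMI-8226 points of probe sets 1 and 2 of UGT2B15 and UGT2B17 lie between -2.18 and -0.98, and AKR1C points lie on both sides of 0.

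Each part of the CPI203 effect by itself called no member. For CPI203 against control 0 of 11 passed in limma (0 at an unadjusted p under 0.05), against 0.0169% of all probe sets. For Combo against LenDex likewise 0 of 11 passed (0 unadjusted), against 0.00564%. Of all 35458 probe sets, 5066 and 4578 had an unadjusted p under 0.05 in these comparisons, in the same order. UGT2B15 probe set 2 had -2.10 in RPMI-8226, -0.50 in JJN3 and -0.22 in ARP1 for CPI203 minus control. UGT2B17 probe set 2 had -2.18, -1.13 and -0.0036 in the same order of lines for Combo minus LenDex. The interaction, which asks whether CPI203 changes the response to LenDex, called 0 of 11 (0 unadjusted), and 0% of all probe sets, with 1035 probe sets at an unadjusted p under 0.05. Its standard errors over the members were 0.22 to 1.1 on the log2 scale, against 0.11 to 0.55 for the average effect.

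A difference between lines in the CPI203 effect was tested with a moderated F test. None of the 11 member probe sets was called (limma, 6 at an unadjusted p under 0.05), against 0.0677% of all probe sets. How many of all probe sets had an unadjusted p under 0.05 in this F test was not counted, so nothing is read from the 6. The smallest adjusted p were 0.206 for UGT2B7 and 0.21 for UGT2B15 probe set 1. With a variance trend and a robust fit, UGT2B7 (adjusted p = 0.042) and UGT2B15 probe set 2 (adjusted p = 0.0476) passed, against 2.56% of all probe sets in that fit. Of listed genes, UXS1, which turns UDP-glucuronate into UDP-xylose, rose by 0.58 with CPI203 (adjusted p = 0.0394). Of the glucocorticoid-induced genes 2 of 22 rose, ZFP36 by 1.23 (adjusted p = 0.0229) and TXNIP by 0.72 (adjusted p = 0.0324). The retinoid X receptor gene RXRA fell by 1.35 (adjusted p = 0.0329). CBR1, a carbonyl reductase of prostaglandins, fell by 0.38 (adjusted p = 0.0288). Of the genes around the members, 0 of 10 on chromosome 4 (limma, 2 at an unadjusted p under 0.05) and 3 of 14 on chromosome 10 were called with CPI203. IDI1, of isoprenoid synthesis, rose by 0.70 (adjusted p = 0.0213), the mitochondrial peptidase PITRM1 rose by 0.42 (adjusted p = 0.0406), and TASOR2 fell by 0.40 (adjusted p = 0.0344). In ARP1 the CPI203 effect was 0.10 for UXS1, 0.29 for ZFP36, 0.27 for TXNIP and -0.30 for CBR1. Without JJN3, without RPMI-8226, or with these averaged, no probe set of the array was called for the CPI203 average effect.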

How the data were processed

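The deposited table holds log2 levels of probe sets. The submitters' processing notes name RMA and Affymetrix Expression Console 1.1 for them. RMA as published corrects background, sets all arrays to 1 distribution and summarises probes, so differences are relative to the bulk of transcripts. That the authors' values are log2 follows from their range (4.13 to 14.53), and no further normalisation was applied. From each sample 150 ng of total RNA was labelled, per the labels' protocols. The number of arrays limits the precision.

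Symbols came from the platform annotation, brought up to date by gene identifier (45172 of 45253 single-symbol probe sets matched), with 1327 probe sets of several symbols and 2713 of none left unnamed. All 35458 probe sets past the level limit entered 1 model of line and treatment over 12 arrays in limma 3.58.1 under R 4.3.3, with 6 residual degrees of freedom, empirical Bayes moderation and two-sided tests, and Benjamini-Hochberg adjustment ran over the whole table. The line is a block because arrays of one label share a line, and deviations from group means correlated within lines at 0.786 to 0.926. The test of a line difference had 3 residual degrees of freedom and assumes that drug effects add on the log2 scale. The model was tested on simulated data.

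Members, gene lists and alternatives were chosen with earlier results of these data known. Named genes were all members, other UGT and AKR genes, up to 4 called genes of each list with the largest change, called neighbours, and the 6 most alike and 3 most opposite genes of each family profile. TXNIP, NR3C1, NQO1, SRD5A1, UGDH, SDC1, IRF4, XBP1, MZB1, MS4A1, IGKC, SERPINA1 and ALB were added after their values were seen. Promoter sequences are RefSeq's (GRCh38.p14). Alternatives were the level filter, 1 probe set per gene, the variance model, loess or quantile normalisation, no line block, and arrays left out or averaged.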

Additional observations from a re-analysis of the deposited data

Results flagged for a closer look

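AKR1C1 probe set 1 moved in opposite directions between lines with LenDex. Its average effect was 1.67 in JJN3 and 3.25 in RPMI-8226, with both parts of it positive in each, and -0.16 in ARP1, with both parts negative. The difference between lines was not tested, since the members were chosen on this contrast. On the ARP1 arrays the probe set lay between 4.97 and 5.34. AKR1C1 probe set 2, which should detect the same gene, was positive in ARP1 (0.62).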

How the results depend on the processing

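Of the members' LenDex effects, none changed direction or moved beyond the spread between lines under any alternative run. Leaving out or averaging lines could not move a mean of 3 lines beyond their SD. The members were also chosen on this contrast, so nothing is read from this. Replicate 1 is ARP1, 2 is JJN3 and 3 is RPMI-8226. The counts of probe sets called were 1714 for the CPI203 average effect, 6 for CPI203 against control, 2 for Combo against LenDex, 0 for the interaction and 1155 for the LenDex average effect, with 14 listed genes called for the last. With 1 probe set per gene these were 1105, 1, 0, 0 and 645, and with a variance trend and robust fit 2892, 358, 44, 0 and 1983. With no replicate block (line left out) they were 0, 0, 0, 0 and 7, with 1 listed gene. Leaving out 1 line at a time gave 0 to 4038, 0 to 1435, 0 to 779, 0 and 24 to 1473, with 3 to 20 listed genes, the highest each time without ARP1. Without the JJN3 control array they were 199, 0, 0, 0 and 618, and with JJN3 and RPMI-8226 averaged 0, 0, 0, 0 and 42, with 4 listed genes. A mean level of 6 or more gave 0 for Combo against LenDex and 1841 for LenDex, and loess or quantile normalisation each gave 4 for Combo against LenDex. Uncalled CPI203 effects that changed sign when 1 line was left out were UGT2B7 (-0.14 to 0.51), AKR1C1 probe set 2 (-0.0233 to 0.15), AKR1C2 probe set 1 (-0.0213 to 0.1985) and AKR1C3 (-0.2362 to 0.0648). UGT2B7 had -0.1358 and AKR1C2 probe set 1 -0.0111 without the JJN3 control array, and AKR1C3 had 0.0266 with the lines averaged. For the interaction the ranges were -0.196 to 0.147 for UGT2B15 probe set 1 (0.3207 without the JJN3 control array), -0.1316 to 0.6363 and -0.0041 to 0.6054 for UGT2B15 probe sets 2 and 3, -0.3323 to 0.0167 and -0.439 to 0.0789 for AKR1C1 probe sets 1 and 2, and -0.5486 to 0.1495 for AKR1C3. The cause of these shifts was not tested. Signal near the low end limits what can be seen in ARP1.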
